A study of Mus musculus with 7 samples.

Results

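The genes described here encode the 2 Polycomb repressive complexes and the enzymes that undo their marks, followed in whole adrenal glands of mice that lack Ezh2 in steroidogenic cells. The 37 genes were listed by name, as subunits of these complexes or as enzymes that act against them. Of these, 36 had a probe set naming that gene alone, out of 22180 genes measured, and for a gene with several probe sets the one with the highest mean over the 7 arrays was used. Cbx6, a chromodomain subunit of PRC1, shared its probe set with Npcd and Nptxr and is named only.

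RNA came from 7 female mice aged 2 months and was measured on 1-colour arrays, 1 gland sample per array. The 4 knockout (KO) mice carried the Cre transgene sf1:Cre and floxed Ezh2 on both alleles. The 3 wild-type (WT) mice were littermates, and the labels do not say whether they carried Cre or a floxed allele. All mice were on a mixed background of mainly C57BL/6 and SV129 that was not controlled. Cre driven by the sf1 (steroidogenic factor 1) promoter acts in cells of the adrenal cortex and not in the chromaffin cells of the medulla, so that the gland also holds cells in which Ezh2 is intact. In such whole-gland samples, fewer cells of a type and less RNA per cell cannot be told apart.

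Polycomb repressive complex 2 (PRC2) methylates histone H3 at K27, with Ezh2 or its paralog Ezh1 as the catalytic subunit and Eed and Suz12 as the parts without which neither enzyme is active. Polycomb repressive complex 1 (PRC1) places ubiquitin on histone H2A, and its canonical form reads the methyl mark through chromodomain (CBX) proteins and compacts chromatin. Kdm6a and Kdm6b remove methyl groups from H3K27, and Bap1 with an ASXL partner (the complex PR-DUB) removes the ubiquitin from H2A. The comparison of KO with WT asks whether the transcripts of this machinery differ in a gland whose cortex lacks Ezh2.

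Of the 36 measured genes 1 rose and 1 fell in KO glands. Scmh1, a subunit of canonical PRC1, rose 1.28-fold, and Pcgf5, a subunit of variant PRC1, fell 1.33-fold. A gene was called at a Benjamini-Hochberg adjusted p under 0.05 in limma, adjusted over all 22180 genes. By this rule 5.14% of all genes were higher and 3.55% were lower, against 2.78% of the measured members in each direction. Of all genes called 59.1% were higher, and 43.1% with each array centred on its median, which moved the median change of all genes to -0.05. The share called among the members was thus not above that of all genes. An unadjusted p under 0.05 was found for 8 of 36 members and for 22.8% of all genes. Values of the 2 groups were fully separate for 9 of 36 members, or 25%, and for 20.2% of all genes.

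The members' changes were small. Their median log2 KO minus WT was -0.03, and that of all genes was 0.00. The median absolute change was 0.13 log2 units over the members and 0.08 over all genes. A change of more than 0.25 log2 units was found for 2 members, those called, or 5.56%, and for 16.9% of all genes. Among the 34 members not called, the 95% interval of the change lay within 0.5 log2 units of 0 for 33. The exception was Bmi1, whose interval ran from -0.55 to 0.19. The median residual SD was 0.09 over the members and 0.10 over all genes.

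**Figure D1:**
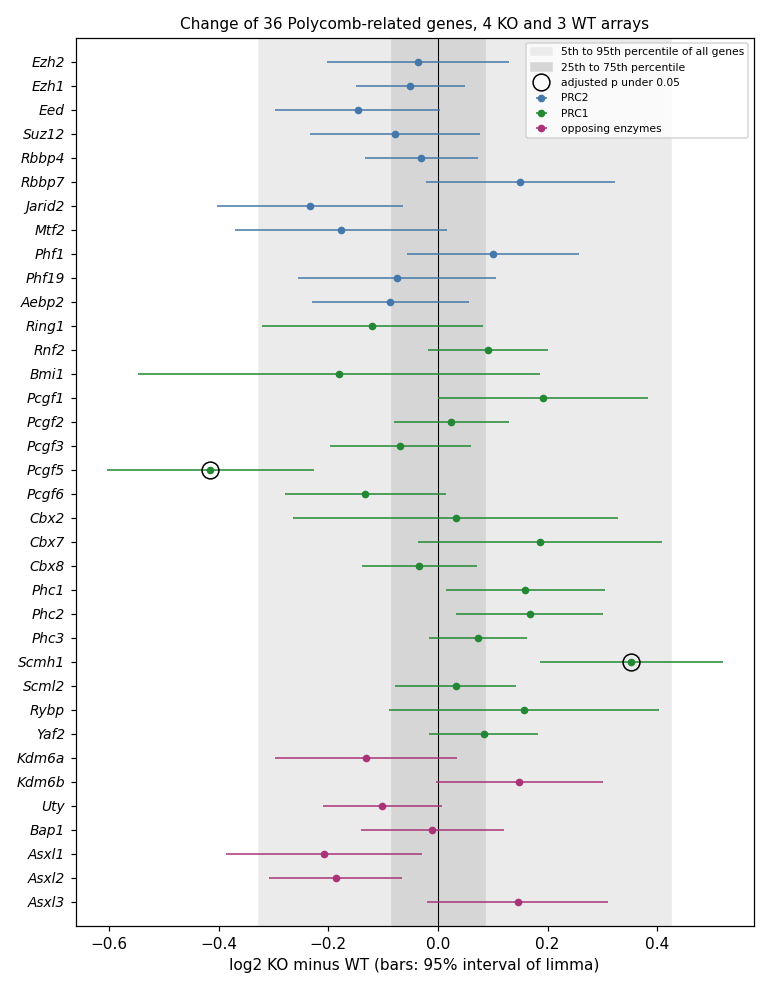
Log2 KO minus WT (x axis) of each of the 36 measured genes (y axis), with the 95% interval of limma from 4 KO and 3 WT arrays. The grey bands give the 5th to 95th and 25th to 75th percentiles of all 22180 genes, and rings mark Pcgf5 (-0.42) and Scmh1 (0.35), the 2 genes called.

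Promoters are shown for the targeted gene and for the 2 genes called, so that the start regions of these genes can be set beside each other. RefSeq promoter windows on GRCm38.p6, from 250 bases before to 50 after a transcript start, were matched for 31 of the 37 genes (40 windows). Capitals mark a match to the E2F motif, searched as TTTCGCGC or TTTGGCGC on both strands. E2F factors drive genes of DNA replication, and Ezh2 is a known target of theirs. The Ezh2 window lies at chr6:47594981-47595280 on the minus strand, those of Scmh1 at chr4:120405098-120405397 and chr4:120452994-120453293 on the plus strand, and the window of Pcgf5 shown, the first of 3, at chr19:36348079-36348378 on the plus strand.
Ezh2: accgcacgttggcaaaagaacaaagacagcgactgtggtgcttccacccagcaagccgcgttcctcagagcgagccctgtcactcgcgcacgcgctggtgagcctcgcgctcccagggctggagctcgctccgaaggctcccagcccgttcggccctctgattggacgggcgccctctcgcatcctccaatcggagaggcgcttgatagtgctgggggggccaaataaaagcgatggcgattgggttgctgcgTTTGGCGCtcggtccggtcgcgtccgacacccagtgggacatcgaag
Scmh1, first start: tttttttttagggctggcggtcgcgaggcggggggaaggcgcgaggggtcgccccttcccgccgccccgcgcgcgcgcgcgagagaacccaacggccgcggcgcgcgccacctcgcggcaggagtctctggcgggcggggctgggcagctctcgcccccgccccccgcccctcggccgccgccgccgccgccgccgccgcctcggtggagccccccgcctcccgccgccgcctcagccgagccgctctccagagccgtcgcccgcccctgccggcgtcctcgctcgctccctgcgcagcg
Scmh1, second start: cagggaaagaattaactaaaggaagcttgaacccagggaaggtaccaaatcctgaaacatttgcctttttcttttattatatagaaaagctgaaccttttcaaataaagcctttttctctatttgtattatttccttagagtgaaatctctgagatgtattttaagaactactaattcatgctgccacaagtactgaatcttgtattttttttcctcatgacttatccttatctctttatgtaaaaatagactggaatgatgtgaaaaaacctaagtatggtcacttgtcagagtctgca
Pcgf5, first start: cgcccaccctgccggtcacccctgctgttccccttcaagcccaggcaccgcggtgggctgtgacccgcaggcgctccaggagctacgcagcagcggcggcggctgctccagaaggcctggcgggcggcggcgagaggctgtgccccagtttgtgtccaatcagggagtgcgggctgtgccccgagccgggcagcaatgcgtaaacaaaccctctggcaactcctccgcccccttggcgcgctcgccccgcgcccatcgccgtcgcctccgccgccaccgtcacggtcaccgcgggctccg

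The E2F match in the Ezh2 window began 4 bases after the start, and it was the only match among the 40 windows of the members. A match was held by 0.813% of all 32851 windows. The motif of steroidogenic factor 1, CAAGGTCA, was held by 0 of the 40 windows and by 1.56% of all windows. The members' windows were rich in G and C, with a median of 64.3% and 23 CpG dinucleotides against 52.7% and 7 over all windows. The 2 starts of Scmh1 differed in this respect, with 54 CpG dinucleotides in the first and 0 in the second. Which start was used in these glands was not measured.

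The catalytic subunits of PRC2 were close in both groups. Ezh2 was at 7.08 on every WT array and at 6.86, 7.04, 7.10 and 7.15 on KO arrays 1 to 4, so that 2 KO arrays lay below and 2 above the WT value. Its log2 change was -0.04 (95% interval -0.20 to 0.13, adjusted p = 0.816 in limma). The sources used here name neither the exons under the probe set nor the floxed exons, and this value therefore checks neither the genotype nor the loss of the protein. Ezh1, the paralog with weaker methyltransferase activity, was at 8.69, 8.65 and 8.64 in WT and at 8.62, 8.54, 8.64 and 8.64 in KO. Its change was -0.05 with a narrow 95% interval of -0.15 to 0.05.

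Of the other core subunits, Eed, which binds the methyl mark and stimulates the enzyme, was at 7.74, 7.80 and 7.76 in WT and at 7.49, 7.66, 7.60 and 7.74 in KO. The groups did not overlap, but the highest KO array was close to the lowest WT array, and the change of -0.15 was not called (SE 0.06, adjusted p = 0.231). Suz12, the scaffold, was at 8.50, 8.58 and 8.60 in WT and at 8.47, 8.41, 8.41 and 8.63 in KO, with groups that overlapped. The histone-binding subunits Rbbp4 and Rbbp7 also serve in other chromatin complexes. Rbbp4 had a change of -0.03, and its second probe set one of 0.13 (adjusted p = 0.372 with every probe set tested on its own). Rbbp7 was at 10.04, 10.05 and 10.07 in WT and at 10.01, 10.25, 10.24 and 10.30 in KO. KO array 1 was thus the lowest of all and the other 3 KO arrays the highest. The change of Rbbp7 was 0.15 (adjusted p = 0.278), and it was called higher without KO array 1 (0.21, adjusted p = 0.0290).

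Among the accessory subunits, Jarid2 had the largest change of PRC2. It recruits PRC2 to chromatin and was at 7.65, 7.69 and 7.77 in WT and at 7.44, 7.31, 7.54 and 7.58 in KO. Every KO array lay below every WT array, and the change of -0.23 (SE 0.07) missed the threshold after adjustment (adjusted p = 0.103 in limma). Its partner in the same form of PRC2, Aebp2, had a change of -0.09 (95% interval -0.23 to 0.06). The Polycomb-like proteins Mtf2, Phf1 and Phf19 bind CpG-rich DNA and mark the other form. Mtf2 was at 7.26, 7.43 and 7.22 in WT and at 6.97, 7.11, 7.22 and 7.22 in KO, with a change of -0.18 (adjusted p = 0.260). Phf1 had a change of 0.10 and Phf19 one of -0.07, and neither was called.

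In all, 0 of the 11 PRC2 genes were called by limma, 1 of 11 (Jarid2) had an unadjusted p under 0.05, and 9 of 11 had a negative change. Over all genes 49.7% of changes were negative. An unadjusted p under 0.05 in limma was found for 22.8% of all genes, and 5.14% were called higher and 3.55% lower. KO array 1 was the lowest of the 7 arrays for 5 of the 11, namely Ezh2, Eed, Rbbp7, Mtf2 and Aebp2. Without KO array 1 the change of Ezh2 was 0.023, and 8 of 11 changes were negative. The mean of 17 proliferation markers was also lowest on that array, at 5.95, with the other KO arrays up to 6.14 and the WT arrays between 6.20 and 6.26. KO array 1 was the lowest as well in the means of the endothelial (8.49) and adipocyte (6.75) markers. The same held for the means of the trithorax-type genes (8.16) and of the partners of the Polycomb complexes and PR-DUB (7.90). Its median over all 41345 probe sets (5.32) was also the lowest. In contrast, it was the highest array in the means of the PRC1 genes (7.18) and of the chromaffin (10.2) and cortical (11.74) markers. Of the 17 proliferation markers 1 fell, the ribonucleotide reductase subunit Rrm2 (adjusted p = 0.00695 in limma), against 3.55% of all genes. A negative change was found for 14 of 17, against 49.7% of all genes. The part of any of these in the PRC2 values was not tested.

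**Figure D2:**
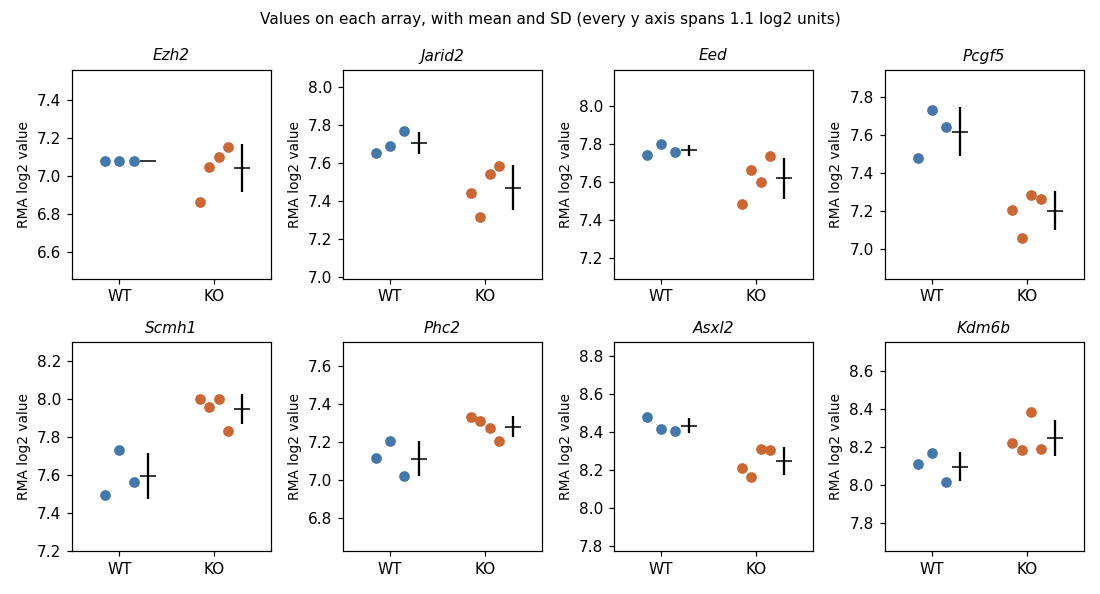
RMA log2 values (y axis, the same span in every panel) of 8 genes on the 3 WT and 4 KO arrays, drawn from left to right in replicate order, with mean and SD beside the points. The arrays separate fully for Pcgf5 and Scmh1 and also for Jarid2, Eed, Asxl2 and Kdm6b, whereas those of Ezh2 overlap.

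In PRC1, 12 of 18 measured genes had a positive change, 1 rose and 1 fell, or 5.56% in each direction. Of all 22180 genes 11166 had a positive change, and 5.14% were called higher and 3.55% lower. The ubiquitin ligases Ring1 and Rnf2 (RING1B), of which every PRC1 holds 1, did not pass the test. Ring1 was at 6.96, 6.84 and 6.92 in WT and at 6.93, 6.75, 6.59 and 6.88 in KO. Rnf2 was at 9.04, 9.02 and 9.10 in WT and at 9.21, 9.10, 9.18 and 9.09 in KO, and its 95% interval of -0.02 to 0.20 allows only small changes.

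The PCGF subunits decide which form of PRC1 is built, with Pcgf2 and Bmi1 in the canonical form and Pcgf1, Pcgf3, Pcgf5 and Pcgf6 in variant forms. Pcgf5 fell. It was at 7.48, 7.73 and 7.64 in WT (mean 7.62 ± 0.13, SD, n = 3) and at 7.20, 7.05, 7.28 and 7.26 in KO (7.20 ± 0.10, SD, n = 4). All KO arrays lay below all WT arrays. The log2 change was -0.42 (SE 0.08, 95% interval -0.60 to -0.23, adjusted p = 0.0220 in limma). Leaving out 1 array at a time kept the direction and gave changes of -0.49 to -0.36. The call was lost without WT array 2 (adjusted p = 0.0814), WT array 3 (adjusted p = 0.0917) or KO array 1 (adjusted p = 0.0556).

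Pcgf3, which forms the variant complex most like that of Pcgf5, was not called. It was at 7.56, 7.63 and 7.55 in WT and 7.55, 7.55, 7.39 and 7.55 in KO (change -0.07, adjusted p = 0.514 in limma). Its second, dimmer probe set gave a change of 0.02 (adjusted p = 0.909 in limma with every probe set tested on its own). The difference between Pcgf5 and Pcgf3 was not itself tested. Pcgf1, the subunit of the variant complex with Kdm2b and Bcor, was at 7.92, 7.97 and 8.07 in WT and at 8.38, 8.15, 8.07 and 8.12 in KO. Its change of 0.19 had an unadjusted p of 0.0492 and an adjusted p of 0.217. Pcgf6, of the complex with E2f6 and Mga, had a change of -0.13 (adjusted p = 0.263). The canonical Pcgf2 (Mel18) stayed within 6.34 to 6.48 on all arrays, and Bmi1 ranged from 5.96 on KO array 2 to 6.71 on WT array 2, the widest spread of the PCGF genes.

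The Polyhomeotic and Sex comb proteins, which carry a SAM domain that links canonical PRC1 units to each other, all had positive changes, 5 of 5, with 1 called. Of all 22180 genes 11166 had a positive change and 5.14% were called higher. Scmh1 rose. It was at 7.49, 7.73 and 7.56 in WT (mean 7.59 ± 0.12, SD, n = 3) and at 8.00, 7.96, 8.00 and 7.83 in KO (7.95 ± 0.08, SD, n = 4), with no overlap. The log2 change was 0.35 (SE 0.07, 95% interval 0.19 to 0.52, adjusted p = 0.0251 in limma). Without 1 array the change lay between 0.30 and 0.42 and the call was kept only without WT array 2 or KO array 4. It was lost without WT array 1 (adjusted p = 0.0737), WT array 3 (0.101), KO array 1 (0.0641), KO array 2 (0.0712) or KO array 3 (0.0713).

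Phc2 was at 7.11, 7.20 and 7.02 in WT and at 7.33, 7.31, 7.27 and 7.20 in KO, so that KO array 4 met the highest WT array. Its change of 0.17 had an unadjusted p of 0.0214 and was not called (adjusted p = 0.134). Phc1 was at 6.57, 6.65 and 6.44 in WT and at 6.72, 6.65, 6.79 and 6.69 in KO (0.16, adjusted p = 0.178). Phc3 had a change of 0.07. Scml2, a germline member of the Sex comb family, was at 3.67 to 3.83 over all arrays with a change of 0.03.

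The chromodomain subunits read the methyl mark. Cbx7 was at 6.71, 6.93 and 6.93 in WT and at 6.93, 6.93, 7.07 and 7.23 in KO, and its change of 0.19 was not called (adjusted p = 0.300). Cbx2 had almost no mean change (0.03), but its KO arrays were split, at 7.09, 6.90, 6.59 and 6.60 against 6.75 to 6.79 in WT, with an SD of 0.24 in KO and 0.02 in WT. Cbx8 had a change of -0.03. Rybp and Yaf2, which replace the chromodomain subunit in variant PRC1 and stimulate the ligase, had changes of 0.16 and 0.08. Yaf2 was at 7.87, 7.98 and 7.99 in WT and at 8.03, 8.03, 8.03 and 8.02 in KO. The groups did not overlap, yet the change was small and not called (adjusted p = 0.301).

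**Figure D3:**
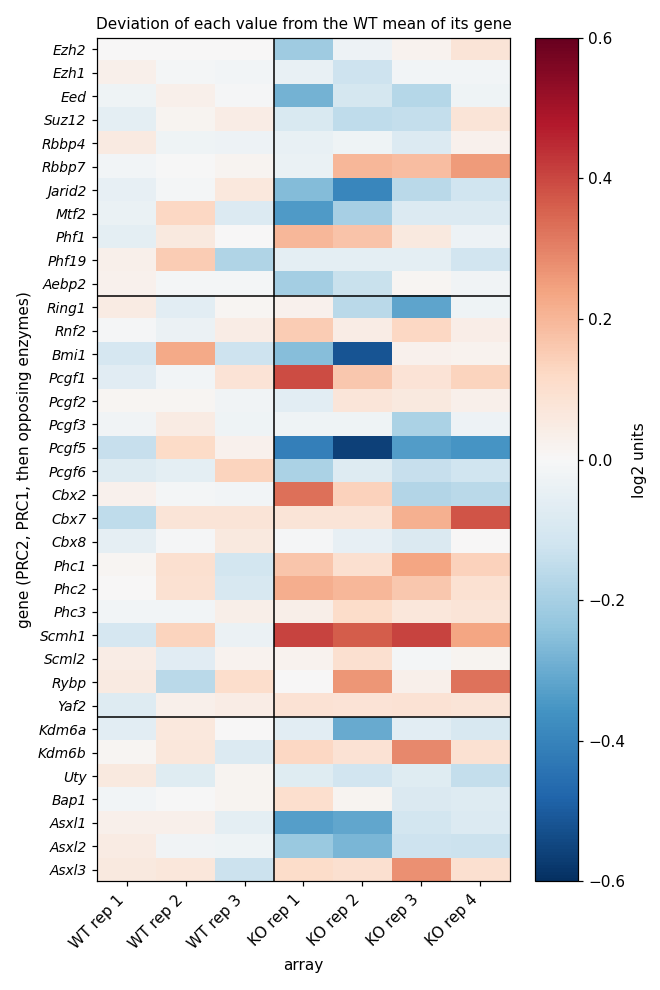
Deviation of each value from the WT mean of its gene, in log2 units by colour, for the 36 genes (top to bottom) on the 7 arrays (left to right), with lines between PRC2, PRC1 and the opposing enzymes and between WT and KO. Pcgf5 is low and Scmh1 high on all 4 KO arrays, and the lowest values of Ezh2, Eed and Mtf2 lie on KO array 1, with Eed below the WT arrays on the other KO arrays too.

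Of the enzymes that oppose Polycomb, 0 of 7 were called, 2 of 7 had an unadjusted p under 0.05, and 4 of 7 had groups that did not overlap, where the shares of all genes were 22.8% and 20.2%. The H3K27 demethylases went in different directions. Kdm6a (UTX), encoded on the X chromosome, was at 9.30, 9.43 and 9.37 in WT and at 9.30, 9.07, 9.30 and 9.28 in KO (change -0.13, adjusted p = 0.322). Kdm6b (JMJD3), an inducible demethylase, was at 8.11, 8.17 and 8.02 in WT and at 8.22, 8.19, 8.38 and 8.19 in KO. All KO values of Kdm6b were above all WT values, and the change of 0.15 was not called (SE 0.06, adjusted p = 0.232). Its second, dimmer probe set gave a change of -0.08 (adjusted p = 0.653).

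Uty, the paralog of Kdm6a on the Y chromosome, is absent from female mice and shows what a probe set reads without its transcript. It was at 3.45, 3.32 and 3.41 in WT and at 3.32, 3.28, 3.32 and 3.25 in KO. Of the 6 probe sets of Y-linked genes, that of Sry lay between 5.15 and 5.22, and the other 5 between 3.01 (Kdm5d) and 3.74 (Zfy2). Scml2 was near the upper end of these 5. Phf19 (4.78 to 5.11) and Asxl3 (4.83 to 5.23) were above them and near Sry alone.

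In PR-DUB, Bap1, the ubiquitin hydrolase, was at 7.38, 7.39 and 7.41 in WT and at 7.50, 7.41, 7.31 and 7.32 in KO (change -0.01, 95% interval -0.14 to 0.12). Of its ASXL partners, which activate it, Asxl2 came closest to the threshold. Asxl2 was at 8.48, 8.42 and 8.41 in WT and at 8.21, 8.16, 8.31 and 8.31 in KO, with every KO array lower. Its change was -0.19 (SE 0.05, adjusted p = 0.0744 in limma). It was called lower when arrays were centred on their medians (-0.24, adjusted p = 0.0292) and when only genes at or above the median level were tested (-0.19, adjusted p = 0.0466). In these settings 5.99% and 9.30% of all genes tested were called lower, against 3.55% in the main fit. Asxl1 was at 6.97, 6.97 and 6.88 in WT and at 6.61, 6.63, 6.83 and 6.86 in KO (change -0.21, adjusted p = 0.157), again with no overlap. Asxl3 had a change of 0.15 (adjusted p = 0.276).

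Other chromatin regulators were looked at for comparison. Of 26 measured partners of the Polycomb complexes and PR-DUB, 0 were called by limma and 8 had an unadjusted p under 0.05. Among 4 further H2A deubiquitinases 0 were called and 0 had such a p. Of 20 trithorax-type methyltransferases, their subunits and H3K27 acetyltransferases, which act against Polycomb, 0 were called and 5 had an unadjusted p under 0.05. The SWI/SNF remodelling complex, whose loss lets Polycomb repression spread, had 1 rise and 2 falls among 21 measured subunits. Over all genes 5.14% were called higher and 3.55% lower. An unadjusted p under 0.05 in limma was found for 5 of the 21 subunits, or 23.8%, and for 22.8% of all genes. Phf10, a subunit of the PBAF form, fell from 8.37 ± 0.12 (SD, n = 3) to 7.93 ± 0.06 (SD, n = 4; change -0.45, adjusted p = 0.00860 in limma). Dpf3 fell from 6.48 ± 0.21 to 5.74 ± 0.20 (-0.74, adjusted p = 0.0185), and Actl6b, the actin-like subunit of the neuronal form, rose from 5.53 ± 0.02 to 5.91 ± 0.16 (0.38, adjusted p = 0.0379). Medians of the log2 change were -0.01, -0.02, -0.02 and -0.02 for these 4 lists, against 0.00 for all genes.

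Markers of several cell types differed between the groups. Over all genes 5.14% were called higher and 3.55% lower. All 15 measured chromaffin markers rose, and their mean was 9.06 to 9.18 on WT arrays and 9.96 to 10.2 on KO arrays. Capsule and stroma markers had 5 of 10 risen (mean 7.77 to 7.89 in WT, 8.26 to 8.91 in KO), the 4 X-zone markers all fell (9.17 to 9.51 in WT, 6.46 to 7.09 in KO), and of 9 macrophage markers 1 fell (7.78 to 7.83 in WT, 7.25 to 7.71 in KO). Of 7 endothelial markers 2 fell (8.77 to 8.89 in WT, 8.49 to 8.83 in KO). The 9 adipocyte markers had 0 calls (3 with an unadjusted p under 0.05 in limma), and their mean lay between 8.02 and 9.23 in WT and between 6.75 and 8.33 in KO. Cortical markers had 1 of 11 risen. Their mean was 11.56 to 11.63 in WT and 11.65 to 11.74 in KO, so that every KO array lay above every WT array. The single markers went both ways, with 7 positive and 4 negative changes. Among the 6 whose groups did not overlap, 3 were higher and 3 lower in KO. An unadjusted p under 0.05 in limma, in either direction, was found for 7 of the 11 and for 22.8% of all genes. The chromaffin mean separates the groups completely, so that a fit with it as a covariate cannot bear on these changes. The part of the cell mixture in the changes of Scmh1 and Pcgf5 was not tested.

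**Figure D4:**
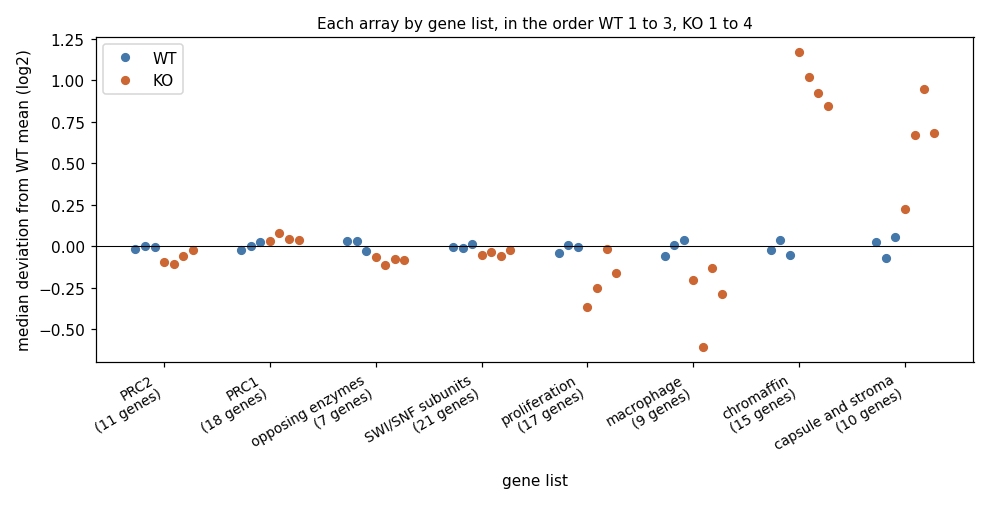
Median deviation from the WT mean (log2, y axis) over the genes of each list (x axis) on each of the 7 arrays. The PRC2, PRC1 and opposing-enzyme lists stay within 0.12 log2 units of 0 on every array, whereas the chromaffin list is 0.85 to 1.17 higher on KO arrays.

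The authors' deposited table of their own KO and WT comparison holds 35 of the 37 genes. In the authors' deposited table, Pcgf5 and Scmh1 were the 2 of these 35 that had an adjusted p under 0.05 (log2 changes of -0.47 and 0.37, adjusted p of 0.0188 and 0.0120), where 5.57% of its 28638 symbols were higher and 4.16% lower. The signs were the same as in the limma fit for 35 of 35, and the largest difference between the 2 log2 changes of a gene was 0.09. Both sets of values come from the same arrays.

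**Figure D5:**
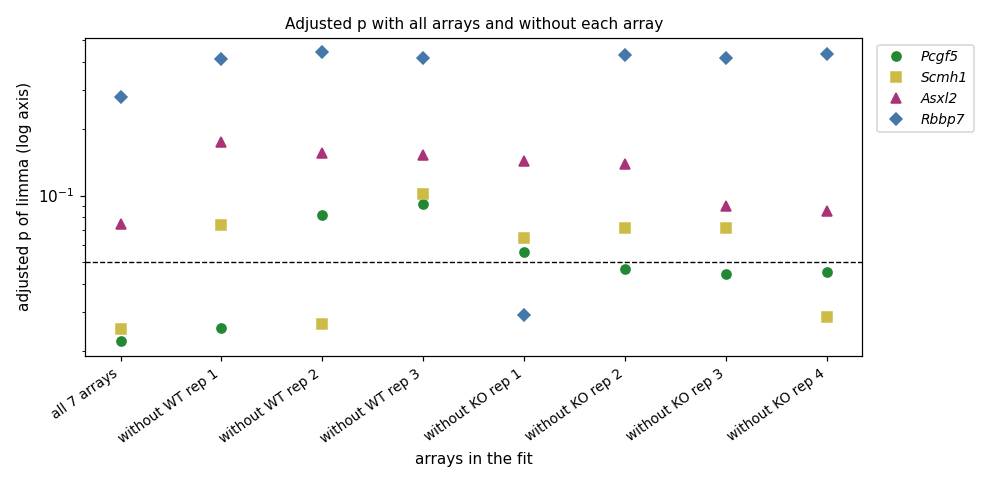
Adjusted p of limma (log axis) for Pcgf5, Scmh1, Asxl2 and Rbbp7 with all 7 arrays and without each array in turn, with a dashed line at 0.05. Pcgf5 stays below the line in 4 of 7 reduced fits and Scmh1 in 2 of 7, and Rbbp7 passes it only without KO array 1.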

How the data were processed

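Per the submitters' processing notes, RMA gave the deposited log2 expression values (41345 probe sets, 7 arrays). RMA corrects background, normalizes by quantiles and summarises probes, and no version of it is stated. For each symbol the authors' deposited table gives a log2 fold change with its raw and adjusted p-value, and no test is named. The platform annotation gave 1 symbol for 23521 probe sets, several for 1820 and none for 16004. KO and WT were compared over all 22180 genes, without a filter, with limma 3.58.1 in R 4.3.3 (lmFit and eBayes, two-sided, 5 residual degrees of freedom), which was tested on simulated data. The number of arrays limits the precision. The labels call the arrays biological replicates. Members and lists were chosen with earlier results of these data known, and every member is accounted for. Of the other chromatin lists, called genes are named, and marker lists are given as counts. Rrm2, Kdm5d, Zfy2 and Sry were named after their values were seen. Alternatives covered filters, probe sets, priors, scaling, weights, blocks, a covariate, a fold minimum, left-out arrays and the authors' deposited table.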

Additional observations from a re-analysis of the deposited data

Results flagged for a closer look

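In 4 of the 36 genes, 1 of the 4 KO arrays lay apart from the others by Dixon's test for 4 values. Chance flags about 1 in 20 groups only where values do not repeat. In each of these 4 genes some of the other KO arrays held the same value. The count of flagged genes therefore cannot be set against that rate. Kdm6a was at 9.07 on KO array 2, with the other KO arrays between 9.28 and 9.30. Pcgf3 was at 7.39 on KO array 3, with the others between 7.55 and 7.55. Asxl3 was at 5.23 on KO array 3, with the others between 5.06 and 5.07. Phf19 was at 4.85 on KO array 4, and the other 3 held the same value of 4.90, so that a small gap was enough.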

How the results depend on the processing

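Over 21 alternatives, 37 of 750 values of single genes changed sign, 0 of them with an adjusted p under 0.05 in limma. Of these 37, 14 lay outside the covariate and block fits. In all alternatives, 12 of 36 genes kept their sign. The authors' deposited table was 1 of these alternatives. Over the other 20, all in limma, the adjusted p ranged from 0.0121 to 0.980 for Pcgf5 and from 0.0141 to 1 for Scmh1. These 20 include the fit with the chromaffin mean as covariate, which is void as a test of the cell mixture. Members called lower numbered 2 of 31 with genes below the median level left out, where 9.30% of all genes tested were lower. They numbered 2 of 36 with arrays centred on their medians, where 5.99% of all genes were lower. Asxl2 was added in each setting, and the main fit called 3.55% of all genes lower. Fewer genes were tested in the first of these settings. With arrays centred on their medians the members' median was -0.083 (-0.051 over all genes), and the signs that turned gave log2 changes of Cbx2 -0.019, Pcgf2 -0.027 and Scml2 -0.019. Centring over all probe sets, chosen after seeing the data, gave Bap1 0.0071, averaging the probe sets of a gene gave Rbbp4 0.048, and further quantile normalization gave Pcgf2 -0.021 and Rbbp4 0.025. A fold minimum of 1.2 gave 0 members higher and 0 lower (308 and 130 of all genes).

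The replicate numbers gave no clear sign of pairing, though so few correlations cannot exclude it. Deviations of same-numbered arrays correlated at 0.07, -0.08 and -0.11 by title number and at -0.07, 0.21 and -0.02 by description number. For arrays with different numbers the correlations ran from -0.09 to 0.21 by title number and from -0.11 to 0.16 by description number. With the replicate block by title number 0 members were higher and 0 lower (523 and 286 of all genes), with the sign turned for Bap1 0.012. With the replicate block by description number 0 were higher and 1 lower (610 and 393 of all genes), and the sign turned for Cbx2 -0.066 and Ezh2 0.023. KO array 4 in the fit by title number and KO array 1 in that by description number had a number that no WT array had. That array did not bear on the log2 changes, which equal those with it left out.

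The chromaffin mean separates the groups completely, so that the fit with it as covariate is void as a test of the cell mixture. In it 0 members were higher and 0 lower, their median was 0.095, and the signs turned for Aebp2 0.61, Asxl1 0.62, Asxl2 0.26, Bmi1 0.77, Cbx2 -1.68, Cbx8 0.0021, Eed 0.43, Ezh1 0.14, Ezh2 0.82, Jarid2 0.50, Mtf2 0.40, Pcgf1 -0.51, Pcgf6 0.19, Phc1 -0.0056, Phc2 -0.45, Phf1 -0.77, Rbbp4 0.10, Rnf2 -0.033, Scmh1 -0.30 and Suz12 0.41.

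Leaving out 1 array at a time gave 0 to 1 members higher and 0 to 1 lower, 594 to 945 of all genes higher and 322 to 654 lower. Where a sign turned, the log2 changes ran from -0.048 to 0.014 for Bap1, -0.066 to 0.10 for Cbx2, -0.074 to 0.023 for Ezh2, -0.0019 to 0.055 for Scml2 and -0.16 to 0.0013 for Phf19. Beyond what is stated, the cause was not tested. The precision is limited by 7 arrays, and for Scml2 and Uty by signals like those of most probe sets for Y-linked genes.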

Other observations

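The RMA table repeats values within a gene. Of the 36 members, 21 had the same value, to 6 decimals, on at least 2 of the 7 arrays, as had 54.7% of all genes. Cbx7 had 4 distinct values on 7 arrays, and Ezh2 was the only member with 1 value on all 3 WT arrays. The WT SD of Ezh2 is therefore 0.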
